A study of Mus musculus with 20 samples.

Results

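The 42 genes described here are members of the mitotic cell cycle machinery, chosen by symbol from a fixed list of replication, mitotic entry and spindle genes. Every one of them was found in both expression tables, which share 53722 genes, and every one passed the filter on low values in oocytes and in spermatogonia. By role, 6 were G1 and S-phase cyclins with their kinase, 10 acted in DNA replication, 10 in entry to mitosis and 16 on the spindle, kinetochore or midzone. Their transcript levels were measured as TPM, a share of all transcripts scaled to gene length and library size so that levels of different genes can be set beside each other.

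The study sequenced RNA of mouse germ cells in which Chd4, the gene of the ATPase of the NuRD chromatin remodelling complex, had been deleted with Cre recombinase. There were 10 groups of 2 libraries each, all on a background mixed from C57BL/6, 129S1/Sv and FVB/NJ. At postnatal days 1 and 5 (P1, P5), non-growing oocytes (NGO) came from knockouts with the genotype Chd4 f/-; Ddx4-Cre Tg/+ (DcKO) and from controls with Chd4 f/+; Ddx4-Cre Tg/+ (Dctrl). Undifferentiated spermatogonia of P3 testes had the same pair of genotypes. At P10, non-growing and growing oocytes (GO) came from Chd4 f/f; Gdf9-iCre Tg/+ knockouts (GcKO) and from Chd4 f/f controls without Cre (Gctrl). Ddx4 is a germ cell gene and Gdf9 an oocyte gene, so the Cre drivers differed between P5 and P10. The Dctrl controls carried Cre and 1 floxed allele, while the Gctrl controls lacked Cre, so at P10 the knockout and the presence of Cre cannot be told apart. In the DcKO and Dctrl pairs both genotypes carried Cre and 1 floxed allele, and the other allele was - in knockouts and + in controls. Effects of the - allele outside the germ cells cannot be told apart there from loss of Chd4 in the germ cells. Pooling of animals and the way NGO were separated from GO were not given in the sources used here. Nothing in the labels says that replicates were separate animals, so p-values measure only the spread between these libraries, which may be technical.

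Cells that divide by mitosis license their replication origins in G1 with the MCM helicase, fire them under cyclin E and cyclin A kinases, and enter mitosis when cyclin B activates CDK1. Chromosomes then attach to the spindle under the checkpoint, until CDC20 lets the anaphase-promoting complex destroy securin and cyclin B. Spermatogonia of the young testis divide by mitosis, whereas oocytes have left the mitotic cycle before birth, rest in meiotic prophase, and store transcripts for the meiotic divisions and the early embryo.

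In mitotic cells, many late cell cycle genes carry a CHR element (letters TTTGAA) with CCAAT boxes upstream, and many replication genes carry an E2F site (searched here as TTCCCGC or TTGGCGC). These letters were searched on both strands in windows from 250 bases before to 50 bases after the gene start, taken from the RefSeq promoter sequences of GRCm38.p6. An E2F match read on the opposite strand as GCGCCAA overlaps a CCAAT box where a T follows. A window was found for 33 of the 42 members. Ccnd1, Ccnd2, Ccne2, Mcm4, Gmnn, Ccna2, Aurkb, Kif20a and Tpx2 had none. The CHR letters occurred in 7 of 9 mitotic entry genes, 7 of 13 spindle genes, 1 of 8 replication genes and 0 of 3 cyclin genes, against 20.2% of all 27025 genes with a window. The E2F letters occurred in 6 of 8 replication genes, 3 of 9 mitotic entry genes and 0 of 13 spindle genes, against 7.79% of all genes. CCAAT was present in 27 of the 33 members and in 41.1% of all genes. The windows of 6 members are shown because their levels carry the comparisons described further on. Cks2 was the most abundant member in oocytes and the one called lower in P1 knockouts, Cks1b, Mad2l1 and Pcna rose between P5 and P10, and Plk1 and Cdc20 fell. The sequences run 5′ to 3′ in the direction of transcription, and capitals mark every match to the 3 motifs on either strand. Cks2 is shown from chr13:51644982-51645281 (plus strand), Cks1b from chr3:89418242-89418541 (minus strand), Plk1 from chr7:122159185-122159484 (plus strand), Cdc20 from chr4:118437294-118437593 (minus strand), Mad2l1 from chr6:66534971-66535270 (plus strand) and Pcna from chr2:132253131-132253430 (minus strand).
Cks2: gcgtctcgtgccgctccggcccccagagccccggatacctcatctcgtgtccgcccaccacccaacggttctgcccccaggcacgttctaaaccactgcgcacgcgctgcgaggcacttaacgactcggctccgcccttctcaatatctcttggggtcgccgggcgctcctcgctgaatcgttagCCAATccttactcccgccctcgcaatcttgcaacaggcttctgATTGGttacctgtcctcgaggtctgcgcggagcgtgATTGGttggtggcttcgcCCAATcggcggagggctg
Cks1b: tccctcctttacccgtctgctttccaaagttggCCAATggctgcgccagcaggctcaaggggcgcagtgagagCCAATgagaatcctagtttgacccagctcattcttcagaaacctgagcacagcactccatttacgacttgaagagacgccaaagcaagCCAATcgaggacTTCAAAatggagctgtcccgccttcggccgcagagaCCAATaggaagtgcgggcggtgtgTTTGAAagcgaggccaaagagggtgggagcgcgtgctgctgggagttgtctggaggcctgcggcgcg
Plk1: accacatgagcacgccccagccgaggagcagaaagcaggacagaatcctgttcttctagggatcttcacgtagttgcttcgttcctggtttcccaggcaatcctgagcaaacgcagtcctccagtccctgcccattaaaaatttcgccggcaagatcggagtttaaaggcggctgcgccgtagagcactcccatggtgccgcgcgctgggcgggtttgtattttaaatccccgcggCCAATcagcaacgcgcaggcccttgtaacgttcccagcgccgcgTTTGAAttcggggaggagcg
Cdc20: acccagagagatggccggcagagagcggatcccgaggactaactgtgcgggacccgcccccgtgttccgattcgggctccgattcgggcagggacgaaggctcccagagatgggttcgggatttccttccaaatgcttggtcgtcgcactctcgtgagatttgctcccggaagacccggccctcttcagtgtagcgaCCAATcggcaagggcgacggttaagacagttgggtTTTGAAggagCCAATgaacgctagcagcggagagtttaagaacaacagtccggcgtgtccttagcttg
Mad2l1: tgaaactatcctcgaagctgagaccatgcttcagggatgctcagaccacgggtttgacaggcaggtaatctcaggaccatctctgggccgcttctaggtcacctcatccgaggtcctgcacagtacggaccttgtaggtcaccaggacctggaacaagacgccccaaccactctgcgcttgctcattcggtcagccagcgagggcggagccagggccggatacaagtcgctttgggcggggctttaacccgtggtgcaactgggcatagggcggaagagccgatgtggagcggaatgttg
Pcna: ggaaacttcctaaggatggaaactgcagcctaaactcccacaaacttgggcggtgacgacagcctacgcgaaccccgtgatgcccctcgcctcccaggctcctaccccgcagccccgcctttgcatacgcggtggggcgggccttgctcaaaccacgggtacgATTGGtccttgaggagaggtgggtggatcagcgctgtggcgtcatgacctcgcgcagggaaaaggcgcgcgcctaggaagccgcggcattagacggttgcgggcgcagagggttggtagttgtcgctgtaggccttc
The Cks2 window held 4 CCAAT boxes in either orientation and no match to the CHR letters. Its paralog Cks1b also had 4 CCAAT boxes, together with 2 CHR matches. Plk1 and Cdc20 each had 1 CHR match, and Mad2l1 had no match to any of the 3 motifs. A match is a description of letters and not a binding site, and its absence says only that these letters were not in this window.

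Replicate libraries correlated at r = 0.891 to 0.964 over all genes on the log2(TPM + 1) scale. Depth, recovered from the TPM values and gene lengths, was 15.3 to 30.1 M reads per library. Oocyte markers summed to 3726 to 10280 TPM in the oocyte libraries and to 31.6 to 79.4 TPM in spermatogonia, while markers of undifferentiated spermatogonia summed to 760.6 to 1513 TPM in the latter and to at most 69.2 TPM in oocytes. Chd4 stood at 24.7 and 31.2 TPM in P1 controls and 4.32 and 1.9 in knockouts, and at 248.6 and 286.4 against 40.2 and 51.7 in spermatogonia. It was 14.5 and 17.9 against 8.28 and 4.94 TPM at P5, 1.63 and 1.85 against 1.34 and 0.247 in P10 NGO, and 1.56 and 2.96 against 0.631 and 1.54 in GO. In limma the Chd4 difference passed the adjusted threshold of 0.05 at P1 alone (adjusted p = 0.0136), and had adjusted p = 0.351 at P5, 0.615 in P10 NGO, 0.488 in GO and 0.0671 in spermatogonia. In all 5 pairs both knockout libraries lay below both controls, by a small margin in GO, and groups are called knockout by their labels.

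**Figure D1:**
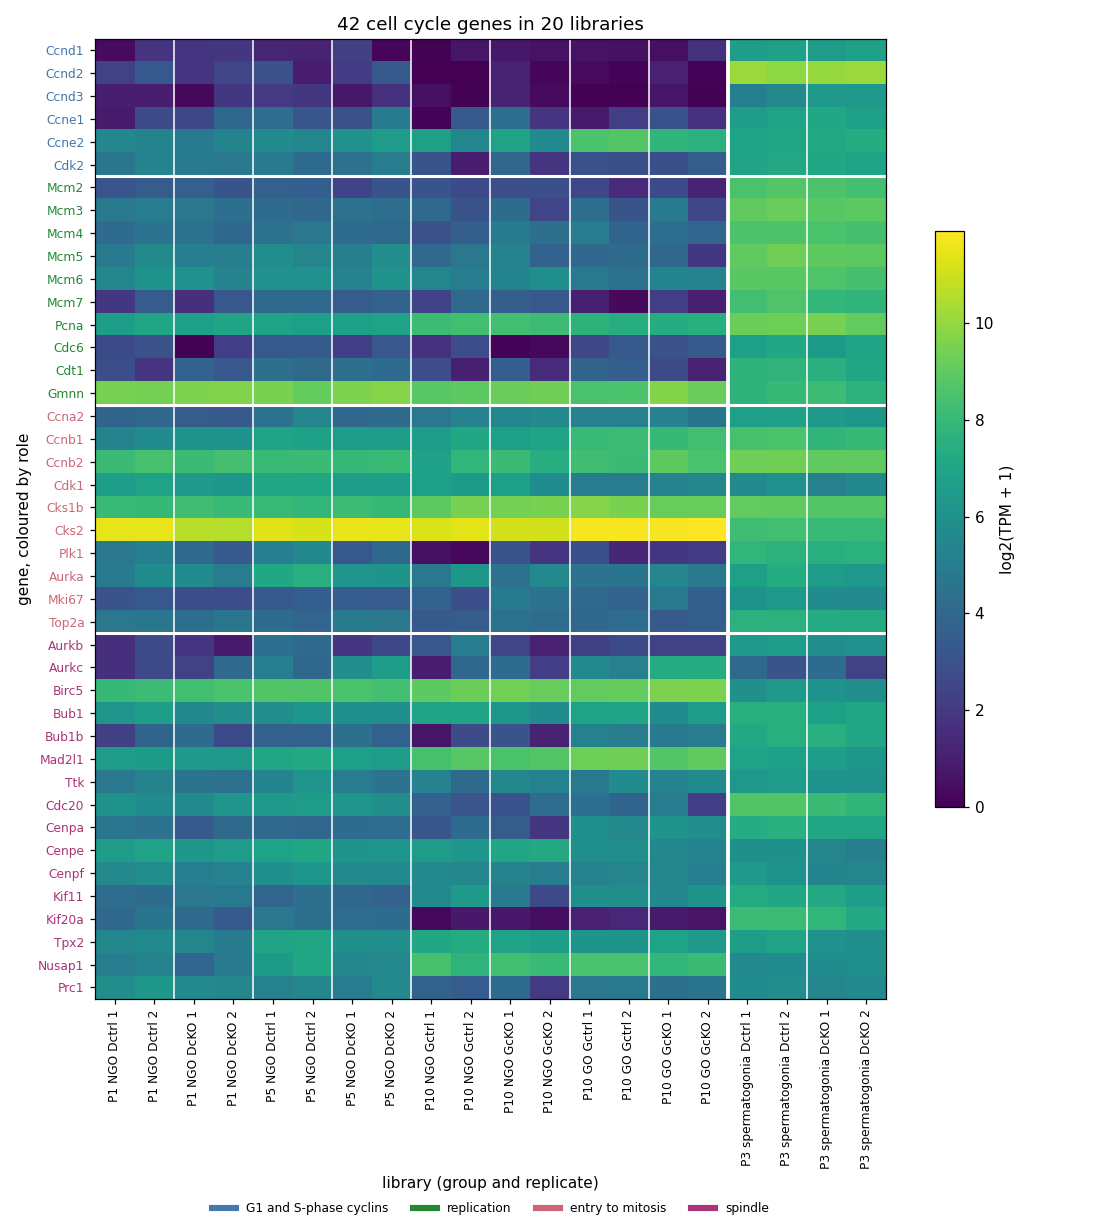
Heat map of log2(TPM + 1) for the 42 genes (rows, coloured and ordered by role) in the 20 libraries (columns, by group and replicate), with white lines between groups and roles. The 4 spermatogonia columns are bright across most cyclins and the MCM genes, while in the 16 oocyte columns Cks2, at 1545 to 3854 TPM, and Gmnn, at 356.2 to 866.9 TPM, stand out from the rest of their roles.

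Oocyte transcripts of these genes were dominated by a few small regulators. Cks2, a subunit that binds cyclin-dependent kinases and helps them to phosphorylate multisite substrates, ranged from 1545 to 3854 TPM over the 16 oocyte libraries, with a mean of 2720. Its gene lies on chromosome 13 from 51645232 to 51650660 (GRCm38, GENCODE M21). Cks2 alone made up 34.4% to 51.7% of the summed TPM of the 42 genes in oocytes, and 3.00% to 3.20% in spermatogonia. Cks1b, its paralog, averaged 466.7 TPM in oocytes (236.5 to 870.2) and Ccnb2, a B-type cyclin, averaged 281.6 TPM (112.9 to 498.8). Mki67, the widely used proliferation marker, had the lowest mean of the mitotic entry group over the 16 libraries, 12.8 TPM (5.94 to 29.7). In each of the 4 groups of P10 oocytes Plk1 was lower than Mki67, with group means of 0.333 to 4.90 TPM. High and low members therefore sat in the same role. Cks1b and Ccnb2 have named copies in the annotation (Cks1brt and Ccnb2-ps), as do Ccnb1, Ccnd3 and Pcna, and how reads were divided between a gene and its copy was not given in the sources used here. Reads of a gene and of an antisense partner cannot be told apart either, since no strand setting was given.

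Among replication genes in oocytes, Gmnn, which encodes geminin, the inhibitor of the licensing factor CDT1, was highest, with a mean of 637.6 TPM (356.2 to 866.9). Pcna, the sliding clamp of the replicative polymerases, followed with 176.7 TPM (101.7 to 318.1), and Mcm6 with 46.7 TPM (21.04 to 67.0). Cdc6, which loads the MCM helicase on origins, was lowest, at a mean of 5.27 TPM (0.0427 to 9.46). Cdt1, which encodes the target of geminin, had an oocyte median of 9.49 TPM and at most 20.2 TPM. Gmnn transcript thus exceeded Cdt1 transcript in each of the 16 oocyte libraries, and the proteins were not measured here. In spermatogonia the 2 levels were closer, with Gmnn at 201.9 to 290.1 TPM and Cdt1 at 133.0 to 217.3 TPM.

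On the spindle, Birc5 (survivin, of the chromosomal passenger complex) averaged 480.6 TPM in oocytes (254.4 to 761.0). Mad2l1, the checkpoint protein MAD2, averaged 289.0 TPM (82.9 to 643.0), and Nusap1, a microtubule-bundling protein, averaged 175.2 TPM (14.0 to 358.8). Aurkb, the kinase of the passenger complex in mitotic cells, had the lowest mean of the role over the 16 libraries, 7.28 TPM (0.826 to 30.7). In each of the 4 groups of P10 oocytes Kif20a was lower than Aurkb, with group means of 0.469 to 1.35 TPM. Partners of 1 complex thus differed widely in level, Birc5 being above Aurkb in every library of oocytes. The cyclin group was led by Ccne2, with 120.2 TPM (30.02 to 418.0), then Cdk2 with 17.0 TPM (0.874 to 39.7) and Ccne1 with 8.29 TPM (0.0974 to 28.7). Ccnd3 had the lowest mean, 1.02 TPM, and Ccnd2 was listed at 0 in both P10 NGO control libraries.

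Spermatogonia had another profile. The 4 spermatogonia libraries lay above all 16 oocyte libraries for 25 of the 42 genes, where 24.2% of all genes did, and below all of them for 3, where 3.84% of all genes did. The 3 lower genes were Cks2, Gmnn and Birc5, and the other 14 overlapped the oocyte range. By role, 5 of 6 cyclin genes, 9 of 10 replication genes, 5 of 10 mitotic entry genes and 6 of 16 spindle genes lay above. No test was made, since the TPM tables were deposited separately, and cell type, sex and age differ together.

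Ccnd2, a D-type cyclin of the G1 phase, had the widest separation of the cyclins, at 956.9 to 1122 TPM in spermatogonia and at most 9.01 TPM in oocytes. Ccnd1 had 96.5 to 112.8 TPM against at most 3.71 TPM. The helicase genes Mcm2 to Mcm7 ran from 223.5 TPM (Mcm7) to 640.1 TPM (Mcm5) in spermatogonia, and none exceeded 67.0 TPM in oocytes. All 6 helicase genes thus lay above the oocyte range. Cks2, in contrast, was at 266.4 to 311.6 TPM in spermatogonia, and Birc5 at 59.3 to 84.1 TPM. Top2a, the topoisomerase that untangles replicated chromosomes, was at 159.5 to 197.1 TPM in spermatogonia and 9.12 to 28.2 TPM in oocytes. Kif20a, a kinesin of the central spindle, was at 155.0 to 287.1 TPM and at 0.179 to 25.4 TPM. Cdk1 was not among the separated genes, since its spermatogonia range of 35.4 to 65.0 TPM lay inside the oocyte range of 30.6 to 136.4 TPM.

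**Figure D2:**
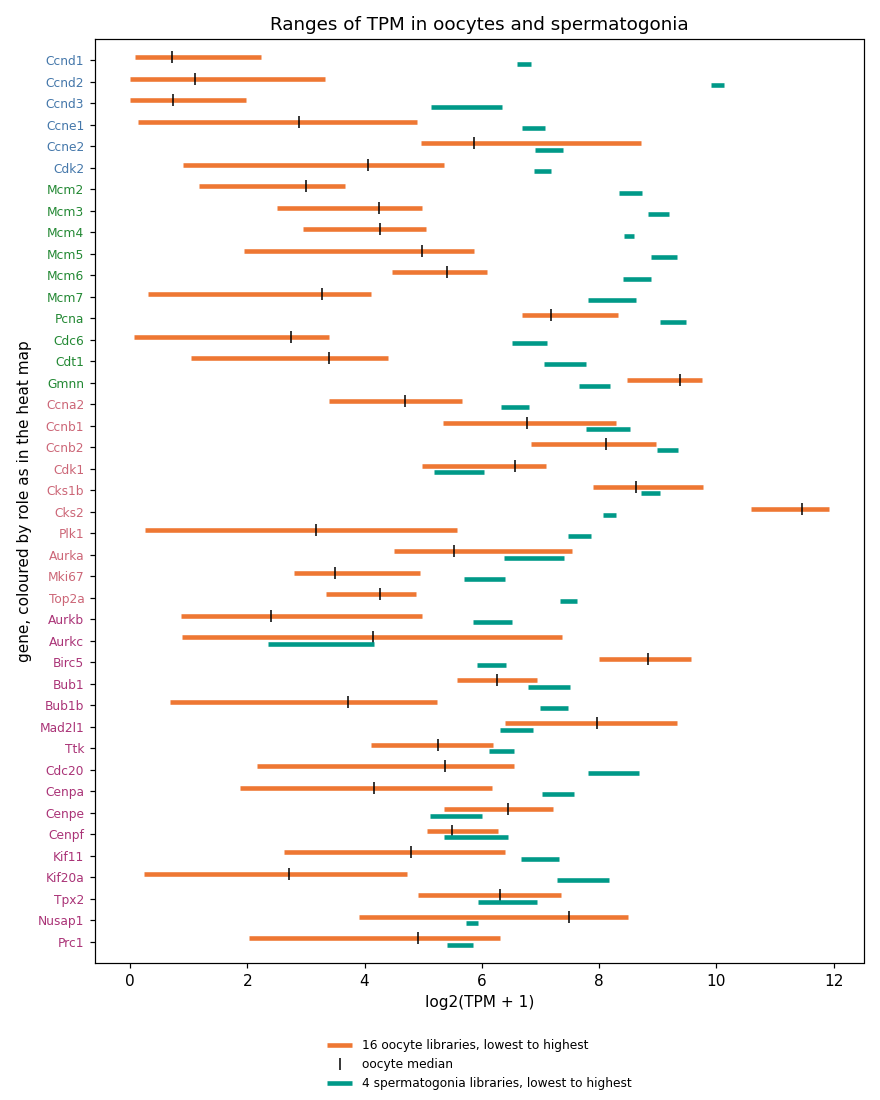
Ranges of log2(TPM + 1) for each gene (rows, coloured by role), as a bar from the lowest to the highest of the 16 oocyte libraries, with a tick at their median, and a bar over the 4 spermatogonia libraries. The spermatogonia bar lies wholly to the right for 25 genes, including Mcm2 to Mcm7 and Ccnd2, and wholly to the left for Cks2, Gmnn and Birc5.

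Between P1 and P5, 4 members rose in control NGO, the spindle genes Tpx2, Nusap1 and Birc5 and the cyclin gene Ccnb1. Ccnb2, the more abundant B-type cyclin, was at 281.1 and 350.3 TPM at P1 and 257.2 and 275.8 TPM at P5 and did not pass the test. Tpx2, which activates Aurora A on the spindle, was at 44.7 and 49.0 TPM in the P1 controls and at 122.8 and 131.5 TPM in the P5 controls. Ccnb1, the cyclin B partner of CDK1, was at 39.4 and 53.2 TPM and then at 124.0 and 113.3 TPM. Nusap1 went from 31.1 and 39.8 TPM to 89.0 and 141.8 TPM. In none of these genes did the libraries of the 2 ages overlap. The log2 fold changes of TPM + 1, with the standard error, were 1.42 ± 0.25 for Tpx2 (limma adjusted p = 0.0071), 1.35 ± 0.24 for Ccnb1 (adjusted p = 0.00717), 1.65 ± 0.34 for Nusap1 (adjusted p = 0.0163) and, for Birc5, 0.57 ± 0.15 (adjusted p = 0.0472, from 254.4 and 290.3 to 404.3 and 404.7 TPM). These 4 genes were called higher and 0 were called lower, where 2.72% of all genes tested were called higher and 1.98% lower. At an unadjusted p under 0.05, 10 members were higher and 2 lower, against 9.22% and 7.06% of all genes, and the P5 libraries lay wholly above those of P1 for 21 members and wholly below for 6, against 27.1% and 24.4%. The median of the 42 genes was 0.33, with 29 above 0, and that of all genes 0.01. Of the 10 replication genes none passed the test, and 7 were above 0. The 6 oocyte markers also differed between the ages, summing to 5466 and 5395 TPM at P1 and 9047 and 9505 TPM at P5, while the 11 granulosa and Sertoli markers summed to 14.3 and 19.6 TPM at P1 and 3.94 and 4.02 TPM at P5, with 2 of 11 at 0 in both libraries of each age. Their part in the result was not tested.

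These calls at P5 rested on few libraries. Without P1 control replicate 1, all 4 missed the threshold (limma adjusted p of 0.0827 for Tpx2, 0.102 for Ccnb1, 0.16 for Nusap1 and 0.329 for Birc5). Without P5 control replicate 2, Ccnb1 was the only one called, with Tpx2 at 0.0553, Nusap1 at 0.134 and Birc5 at 0.172. Without P5 control replicate 1, Ccnb1 (adjusted p = 0.064) and Birc5 (0.186) were lost, and without P1 control replicate 2, Nusap1 (0.0635) and Birc5 (0.11) were lost. When the P1 and P5 control libraries alone were fitted, 9 members were called, all higher. Birc5 also lost its call with no filter, with median scaling and with the replicate number as a block.

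P10 control NGO were set beside P5 control NGO, which differ in age and also in genotype, so these cannot be told apart. The median log2 fold change of all genes between these groups was -0.47, and 5.54% of all genes were called higher and 17.1% lower. The oocyte markers summed to 9047 and 9505 TPM at P5 and to 5439 and 5800 TPM in P10 NGO, and their part in the result was not tested. Genes at 1 TPM or more numbered 15453 and 14305 in the P5 control libraries and 10940 and 10213 in those of P10 NGO. Recovered depth was 21.4 and 21.7 M reads at P5 and 22.6 and 19.6 M reads at P10. The part of the lower number of detected genes in the result was not tested either. Among the 42 genes, 6 rose and 9 fell, with a median of -0.65. Those that rose were Mad2l1, Pcna, Cks1b, Nusap1, Kif11 and Birc5, and those that fell were Kif20a, Plk1, Cdc20, Cdk2, Aurka, Prc1, Ccnd3, Mcm4 and Cdt1. With libraries scaled to a common median or quantile-normalised, the split was 7 higher and 6 lower. The P10 libraries lay wholly below those of P5 for 24 members and wholly above for 8, against 42.2% and 15.2% of all genes, and at an unadjusted p under 0.05 there were 16 lower and 7 higher, against 26.1% and 8.23%.

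The kinase Plk1, which drives mitotic entry and kinetochore attachment, was at 32.8 and 46.7 TPM in P5 controls and at 0.471 and 0.195 TPM in P10 NGO controls, where it rested on 8 and 3 reads. Kif20a was at 25.4 and 20.3 TPM and then at 0.179 and 0.758 TPM, on 6 and 23 reads. Cdc20, the checkpoint's target and activator of the anaphase-promoting complex, was at 82.5 and 92.2 TPM and then at 11.4 and 7.88 TPM. All 3 were low in both P10 libraries, with no overlap. Their log2 fold changes were -4.92 ± 0.60 for Plk1 (limma adjusted p = 0.000162), -4.04 ± 0.43 for Kif20a (6.29e-05) and -3.07 ± 0.72 for Cdc20 (0.00931). The remaining genes called lower had log2 fold changes from -1.33 (Mcm4) to -2.53 (Cdk2).

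Mad2l1 moved the other way, from 127.7 and 143.8 TPM at P5 to 352.2 and 451.2 TPM at P10. Pcna rose from 121.2 and 103.5 to 281.8 and 318.1 TPM, and Cks1b from 260.6 and 236.5 to 484.1 and 714.2 TPM. These 3 genes had log2 fold changes of 1.55 ± 0.17 (limma adjusted p = 8.24e-05), 1.41 ± 0.19 (0.000311) and 1.24 ± 0.18 (0.00053). Cks2 itself, at 2574 and 2344 TPM at P5 and 2408 and 2790 TPM at P10, overlapped between the ages. A checkpoint inhibitor of CDC20 thus had more transcript at P10 while Cdc20 had less. In the other genes called higher, the log2 fold change was 1.93 for Kif11, the bipolar spindle kinesin, 1.27 for Nusap1 and 0.45 for Birc5.

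The calls of Mad2l1, Pcna, Cks1b, Plk1 and Kif20a held in every one of the 11 alternative settings tried, and each of the other 10 was lost when at least 1 control library was left out. Without P5 control replicate 1, 5 members were called, and without P5 control replicate 2, 7 were. Without P10 NGO control replicate 1 or 2, the counts were 11 and 10. Cdc20, for one, had a limma adjusted p of 0.0501 and 0.0511 without P5 control replicates 1 and 2, and 0.0576 without P10 NGO control replicate 2.

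In control oocytes at P10, growth went with more cyclin E2 and cyclin B1 transcript and less Cdk1. Ccne2, a cyclin of the G1-to-S transition, was at 106.6 and 43.3 TPM in NGO and 369.5 and 418.0 TPM in GO. Ccnb1 was at 92.0 and 140.7 TPM in NGO and 272.6 and 290.9 TPM in GO. Cdk1, the kinase that cyclin B activates, was at 104.3 and 89.3 TPM in NGO and 30.9 and 30.6 TPM in GO. The cyclin and its kinase therefore moved in opposite directions, each without overlap. The log2 fold changes were 2.51 ± 0.43 for Ccne2 (limma adjusted p = 0.000993), 1.30 ± 0.24 for Ccnb1 (0.00163) and -1.62 ± 0.27 for Cdk1 (0.000939), and these calls held in all 11 alternatives. Beside this, the 6 oocyte markers summed to 5439 and 5800 TPM in NGO and 6691 and 6376 TPM in GO. Of these, Gdf9 (2.22) and Zp3 (1.29) were called higher and Figla (-1.99) lower. Of the 4 germ cell markers, Mael (-3.04), Ddx4 (-1.01) and Dppa3 (-0.39) were called lower, and Dazl (0.48) was not called. The 8 markers of undifferentiated spermatogonia summed to 0.542 and 0.785 TPM in NGO and 25.0 and 34.1 TPM in GO. Their part in the result was not tested.

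In all, 7 members were called higher and 4 lower in GO, where 11.0% of all genes were called higher and 13.2% lower. With libraries scaled to a common median the split was 14 and 2, and with quantile normalisation 10 and 3. At an unadjusted p under 0.05, 14 members were higher and 6 lower, against 14.8% and 18.7% of all genes, and the groups did not overlap for 18 higher and 12 lower members, against 23.2% and 29.7%. Cks2 was at 2408 and 2790 TPM in NGO and at 3436 and 3525 TPM in GO (log2 fold change 0.42 ± 0.084, limma adjusted p = 0.00267). That call was lost with quantile normalisation and in a fit of the compared groups alone (limma adjusted p up to 0.565 over the alternatives). Bub1b, which encodes the checkpoint kinase-like protein BUBR1, was at 0.606 and 5.62 TPM in NGO and 36.5 and 32.2 TPM in GO. Cenpa, the histone variant of the centromere, was at 8.25 and 16.7 TPM and then at 62.0 and 48.0 TPM. Mad2l1 (352.2 and 451.2 to 626.2 and 643.0 TPM) and Aurkc, the Aurora kinase of meiotic cells (0.851 and 15.4 to 49.3 and 35.4 TPM), were the other genes called higher. The NGO replicates of Bub1b and Aurkc lay far apart, but below both GO libraries.

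Besides Cdk1, Tpx2, Pcna and Mcm7 were called lower in GO. Tpx2 was at 136.3 and 162.1 TPM in NGO and 70.7 and 69.7 in GO (log2 fold change -1.07, limma adjusted p = 0.00743), and lost its call with median scaling. Pcna was at 281.8 and 318.1 TPM and then at 206.0 and 170.3 TPM, and Mcm7 at 4.19 and 15.6 TPM and then at 1.07 and 0.242 TPM. Both calls were lost without NGO control replicate 2, without GO control replicate 2 and in a fit of the compared groups alone. The Pcna call was also lost with quantile normalisation and with median scaling, and its log2 fold change was as weak as -0.17 over the alternatives. Without NGO control replicate 1, Aurkc, Bub1b, Mad2l1 and Cenpa were lost. Without GO control replicate 1, Aurkc, Mad2l1 and Cenpa missed the threshold, and without GO control replicate 2, Aurkc and Mad2l1 did.

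**Figure D3:**
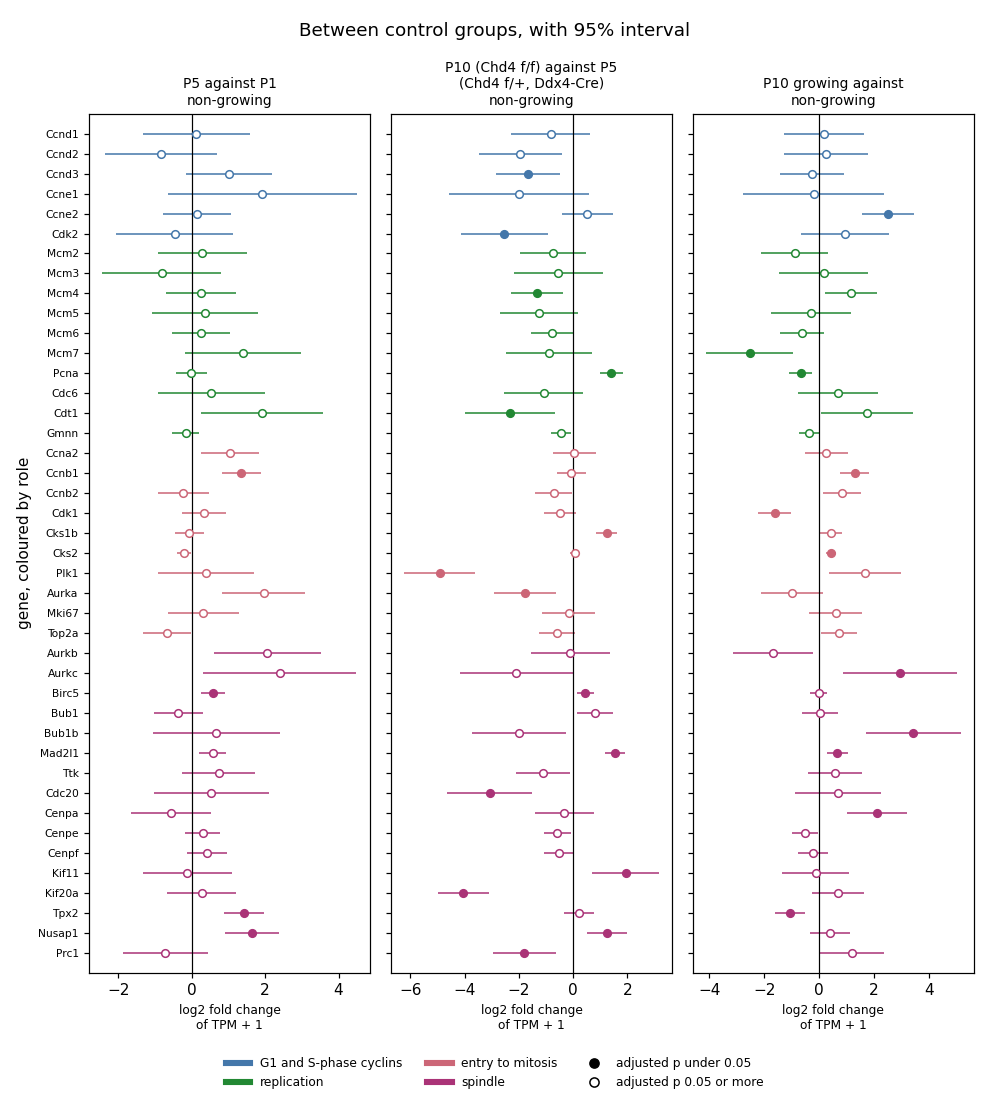
Log2 fold changes of TPM + 1 with 95% intervals for the 42 genes (rows, coloured by role) in 3 comparisons of control groups, filled where the adjusted p was under 0.05. The 4 filled points of P5 against P1 lie right of 0, those of P10 against P5 fall on both sides (6 and 9), and growing against non-growing oocytes has 7 right and 4 left.

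Knockout and control were compared at each age. In P1 NGO, Cks2 was the only member called. It was at 2861 and 2842 TPM in the controls and at 1595 and 1545 TPM in the knockouts, so the replicates lay close together and the groups far apart. The log2 fold change was -0.86 ± 0.084 (limma adjusted p = 0.000485), a level 0.551 times that of the controls, where 0.84% of all genes tested were called lower and 0.86% higher. The call held in all 11 alternatives, with adjusted p from 0.000611 to 0.0171. Its recovered reads were 14933 and 15699 in controls and 9878 and 11860 in knockouts. The paralog Cks1b overlapped, at 267.5 and 253.5 TPM in controls and 308.9 and 258.4 TPM in knockouts. At an unadjusted p under 0.05, 2 members were higher and 4 lower, against 4.96% and 5.26% of all genes. The knockout libraries lay wholly below the controls for 15 members and wholly above for 6, against 22.5% and 18.4% of all genes. The median of the 42 genes was -0.19, with 27 below 0, and that of all genes was 0. Beside this, the 6 oocyte markers summed to 5466 and 5395 TPM in P1 controls and 4268 and 4228 TPM in knockouts, with none at 0. Of these 6 markers 3 were called lower and 0 higher. The 3 were Gdf9 (log2 fold change -3.27), Zp3 (-2.09) and Ooep (-0.65). The 8 markers of undifferentiated spermatogonia summed to 15.2 and 24.1 TPM in controls and to 56.1 and 55.9 TPM in knockouts, with 1 called higher and 0 lower. The 5 endothelial markers summed to 8.39 and 9.59 TPM in controls and 24.3 and 16.2 TPM in knockouts. The 3 of them that were tested had log2 fold changes of 1.245 (Pecam1), 0.06 (Cdh5) and -0.73 (Tek), and 0 were called. Their part in the result was not tested. In bulk samples such as these, fewer cells of a type and less RNA per cell cannot be told apart.

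At P5, none of the 42 genes passed the test, where 1.36% of all genes did. The smallest p belonged to spindle genes. Tpx2 was at 122.8 and 131.5 TPM in controls and 60.3 and 56.9 TPM in knockouts (log2 fold change -1.10 ± 0.25, limma adjusted p = 0.0578). Nusap1 was at 89.0 and 141.8 TPM and then at 45.4 and 47.3 TPM (-1.26 ± 0.34, adjusted p = 0.106). Cenpe, a kinetochore motor, had a log2 fold change of -0.78 (adjusted p = 0.127) and Aurkb of -1.99 (adjusted p = 0.218). In these 4 genes both knockout libraries lay below both controls. Over the list, 8 genes were lower and 3 higher at an unadjusted p under 0.05, against 4.26% and 7.57% of all genes. The knockout libraries lay wholly below the controls for 20 genes and wholly above for 8, against 23.4% and 23.9% of all genes. Of the 16 spindle genes, 13 were below 0, and the median of all 42 was -0.24 against 0 for all genes. With no filter on low values 1 member was called, lower.

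Beside this, the granulosa and Sertoli markers summed to 3.94 and 4.02 TPM in P5 controls and to 18.7 and 52.3 TPM in P5 knockouts, with 2 of 11 at 0 in both libraries of each group. Of the 5 tested, Inha alone was called (log2 fold change 3.765, higher), and 4 were above 0 and 1 below. Blood and immune markers summed to 3.33 and 0.273 TPM in controls and 2.29 and 24.2 TPM in knockouts, with 0 called. The oocyte markers summed to 9047 and 9505 TPM in controls and 6745 and 5122 TPM in knockouts. Of these, Ooep was called lower (-0.79) and 0 higher. Their part in the values of the 42 genes was not tested. The effect on Cks2 differed between the ages. Cks2 was at 2574 and 2344 TPM in P5 controls and 2981 and 2859 TPM in P5 knockouts, so at P5 the knockouts lay above the controls (log2 fold change 0.25, limma adjusted p = 0.22). The test of the difference of the knockout effect, P5 minus P1, gave 1.11 ± 0.12 on the log2 scale (limma adjusted p = 0.00515). Cks2 was the only member past that test, which 0.23% of all genes passed as higher and 0.083% as lower, and it kept the call in all 15 alternatives.

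In P10 NGO none of the 42 genes passed the test, where 1.92% of all genes did. Kif11 was at 51.7 and 82.9 TPM in controls and at 27.9 and 5.16 TPM in knockouts (log2 fold change -2.32 ± 0.56, limma adjusted p = 0.0623). Aurkb was at 8.53 and 30.7 TPM and then at 4.54 and 1.14 TPM (-2.34 ± 0.67, adjusted p = 0.109). Plk1 was at 0.471 and 0.195 TPM and then at 7.33 and 2.48 TPM (2.02 ± 0.60, adjusted p = 0.122), and Mcm4 at 6.72 and 11.03 TPM and then at 30.1 and 19.8 TPM (1.40 ± 0.44, adjusted p = 0.138). These values point both ways, and knockout replicates 1 and 2 differed several-fold for Kif11, Aurkb and Plk1. At an unadjusted p under 0.05, 6 genes were higher and 5 lower, against 7.95% and 7.62% of all genes, and 28 of 42 were above 0. The knockout libraries lay wholly above the controls for 8 members and wholly below for 7, against 17.4% and 17.0% of all genes. The oocyte markers summed to 5439 and 5800 TPM in controls and 4796 and 3726 TPM in knockouts, and granulosa and Sertoli markers to 0.678 and 0.0732 TPM and to 8.46 and 1.44 TPM. Of the 4 germ cell markers, Ddx4 was called lower (log2 fold change -1.40, limma adjusted p = 0.0423) and 0 were called higher. Their part was not tested. Without knockout replicate 1, 4 members were called, all lower, and without control replicate 1, 1 was called, also lower.

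In growing oocytes, Gmnn rose in the knockouts. It was at 356.2 and 368.8 TPM in controls and 825.9 and 576.4 TPM in knockouts, with no overlap, although the knockout replicates differed by more than the controls did. The log2 fold change was 0.93 ± 0.17 (limma adjusted p = 0.00309). The call held in 10 of 11 alternatives and was lost when the GO libraries alone were fitted (adjusted p = 0.0542). It was the only member called, while 9.12% of all genes were called higher and 4.69% lower. At an unadjusted p under 0.05, 2 members were higher and 5 lower, against 16.5% and 9.01%, and the groups did not overlap for 8 higher and 11 lower members, against 30.3% and 18.0%. With quantile normalisation 5 members were called, 3 higher and 2 lower, and with median scaling 1 higher and 2 lower. Without either knockout replicate, 1 higher and 1 lower were called. Gmnn was at 715.2 and 696.3 TPM in controls and 786.2 and 817.0 TPM in knockouts at P1, at 719.5 and 554.1 against 768.6 and 866.9 TPM at P5, and at 455.0 and 479.3 against 576.1 and 639.8 TPM in P10 NGO. Both knockout libraries thus lay above both controls in each of these groups too, where the test was not passed (limma adjusted p = 0.895, 0.42 and 0.309). The difference of GO minus NGO for Gmnn was 0.55 ± 0.24 (limma adjusted p = 0.21). Cdt1, the target of geminin, was at 13.1 and 10.7 TPM in controls and 5.56 and 1.23 TPM in knockouts (log2 fold change -1.74, adjusted p = 0.175). Dppa3, an oocyte gene that is no member, was the most abundant transcript in every oocyte library, and stood at 45240 and 46800 TPM in GO controls and 94340 and 105500 TPM in GO knockouts. The 6 oocyte markers summed to 6691 and 6376 TPM in GO controls and 10280 and 9426 TPM in knockouts, and endothelial markers to 6.64 and 2.96 TPM and to 102.3 and 2.78 TPM. Of the 3 endothelial markers tested, Pecam1 had a log2 fold change of 2.64, Cdh5 of 0 and Tek of -0.45, and 0 were called. TPM is a share of all transcripts, and the part of these values in those of the members was not tested.

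The knockout effects in GO and NGO were compared in the same fit. The difference, GO minus NGO, passed for Top2a (-1.59 ± 0.43, limma adjusted p = 0.0425) and for Cenpe (-1.13 ± 0.31, adjusted p = 0.0492), where 2.62% of all genes passed lower and 4.84% higher. Top2a was at 9.30 and 10.3 TPM in NGO controls and 20.9 and 18.2 TPM in NGO knockouts, and at 15.5 and 18.0 TPM in GO controls and 9.12 and 11.3 TPM in GO knockouts. Cenpe was at 96.3 and 75.0 TPM and then 126.8 and 146.7 TPM in NGO, and at 60.3 and 58.8 TPM and then 46.9 and 39.7 TPM in GO. In both genes the knockout libraries lay above the controls in NGO and below them in GO. Top2a lost the call without any 1 of the 4 control libraries, either NGO knockout library or GO knockout replicate 1, with an adjusted p of 0.0559 to 0.119. Cenpe lost it without either GO control, either GO knockout library, NGO control replicate 2 or NGO knockout replicate 2, with an adjusted p of 0.0535 to 0.127. Both genes also lost the call with the replicate number as a block (adjusted p = 0.0596 for Top2a and 0.0663 for Cenpe) and in a fit of the P10 groups alone (0.211 and 0.185), and Top2a with a pseudocount of 0.1 (0.0515).

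**Figure D4:**
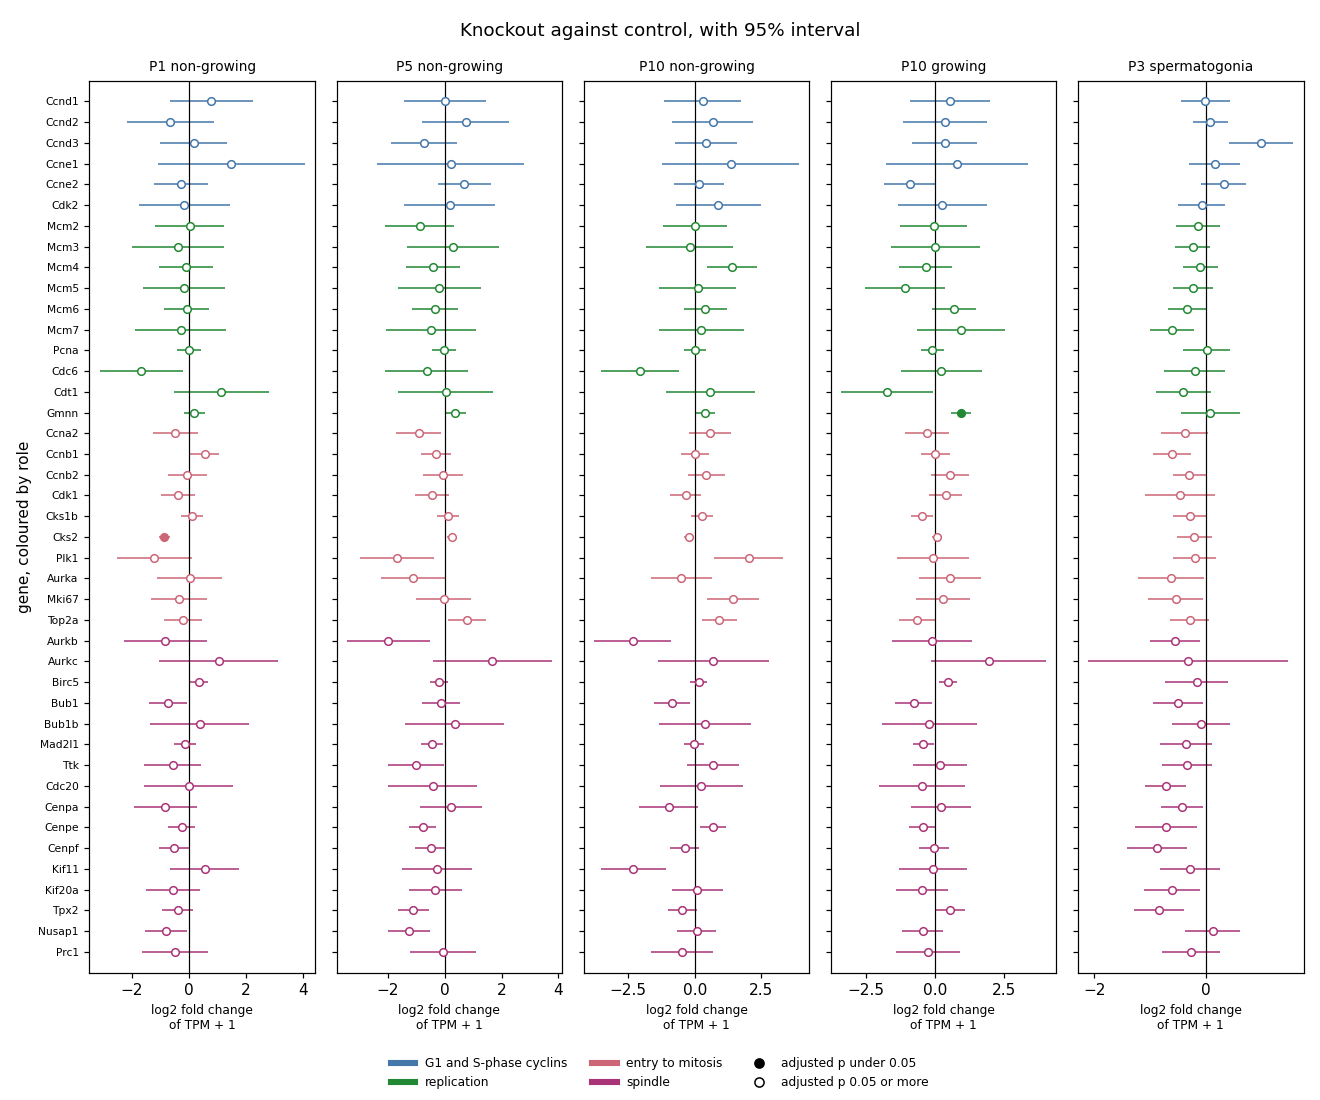
Log2 fold changes of TPM + 1, knockout against control, with 95% intervals, for the 42 genes (rows, coloured by role) in the 5 pairs of groups, filled where the adjusted p was under 0.05. Cks2 at P1, at -0.86, and Gmnn in growing oocytes, at 0.93, are the filled points, and in spermatogonia 35 of the 42 points lie left of 0, none of them filled.

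In spermatogonia no gene passed the test, among the members or among the 18671 genes tested in limma (0.0%). At an unadjusted p under 0.05, 15 members were lower and 1 higher, against 4.99% and 11.1% of all genes (931 and 2073 genes). In simulated data of this size most changes put in did not pass the test, so a count of 0 does not show that levels were unchanged. The knockout libraries lay wholly below the controls for 27 members and wholly above for 3, against 18.0% and 27.9% of all genes. Each of the 10 mitotic entry genes was lower without overlap, as were 11 of 16 spindle genes, 6 of 10 replication genes and 0 of 6 cyclin genes. The median of the 42 genes was -0.30 and that of all genes 0.09. With quantile normalisation the medians were -0.27 and -0.07, and with median scaling -0.46 and -0.05.

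Cdc20 had the smallest p among the members in the spermatogonia comparison, at 410.2 and 408.9 TPM in controls and 273.1 and 223.7 TPM in knockouts (log2 fold change -0.73 ± 0.15, limma adjusted p = 0.154). Tpx2 was at 103.0 and 121.8 TPM and then at 63.5 and 60.4 TPM (-0.84 ± 0.18, adjusted p = 0.156), and Ccnb1 at 348.7 and 369.0 TPM and then at 219.2 and 248.5 TPM (-0.62 ± 0.14, adjusted p = 0.158). Ccnd3, a D-type cyclin, stood apart from these, with 33.9 and 47.1 TPM in controls and 79.9 and 79.9 TPM in knockouts (0.98 ± 0.23, adjusted p = 0.169). Pcna, at 600.6 and 618.9 TPM in controls and 710.9 and 527.0 TPM in knockouts, overlapped.

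Beside these values, markers of other cells differed between the same libraries. Stromal markers summed to 7.80 and 11.8 TPM in spermatogonia controls and 36.6 and 40.1 TPM in knockouts, with 3 of 7 at 1 TPM or more in both libraries and 1 at 0 in each group. Endothelial markers summed to 29.5 and 31.7 TPM and then to 53.4 and 63.0 TPM. Granulosa and Sertoli markers summed to 126.9 and 68.1 TPM and then to 113.4 and 119.5 TPM, with 1 of 11 at 0 in both libraries of each group. Markers of undifferentiated spermatogonia summed to 1513 and 1407 TPM in controls and to 1260 and 760.6 TPM in knockouts. Their part in the lower values of the 42 genes was not tested.

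The log2 fold changes of members with and without a CHR match were set side by side. In knockout against control spermatogonia the medians were -0.30 for the 15 genes with a match and -0.24 for the 18 without, in P5 NGO -0.27 and -0.20, and in P1 NGO -0.20 and -0.14. At P10 they were 0.24 and 0.13 in NGO and -0.05 and 0.04 in GO. In spermatogonia all 15 genes with a match and 14 of the 18 without were below 0. The other motifs split in a like way there. All 10 genes with an E2F match and 19 of the 23 without were below 0 (medians -0.37 and -0.29). For CCAAT, 25 of 27 with a match and 4 of 6 without were below 0 (medians -0.30 and -0.19). The genes with a CHR match were 7 mitotic entry, 7 spindle and 1 replication gene, so match and role overlapped. These are descriptions with no test.

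**Figure D5:**
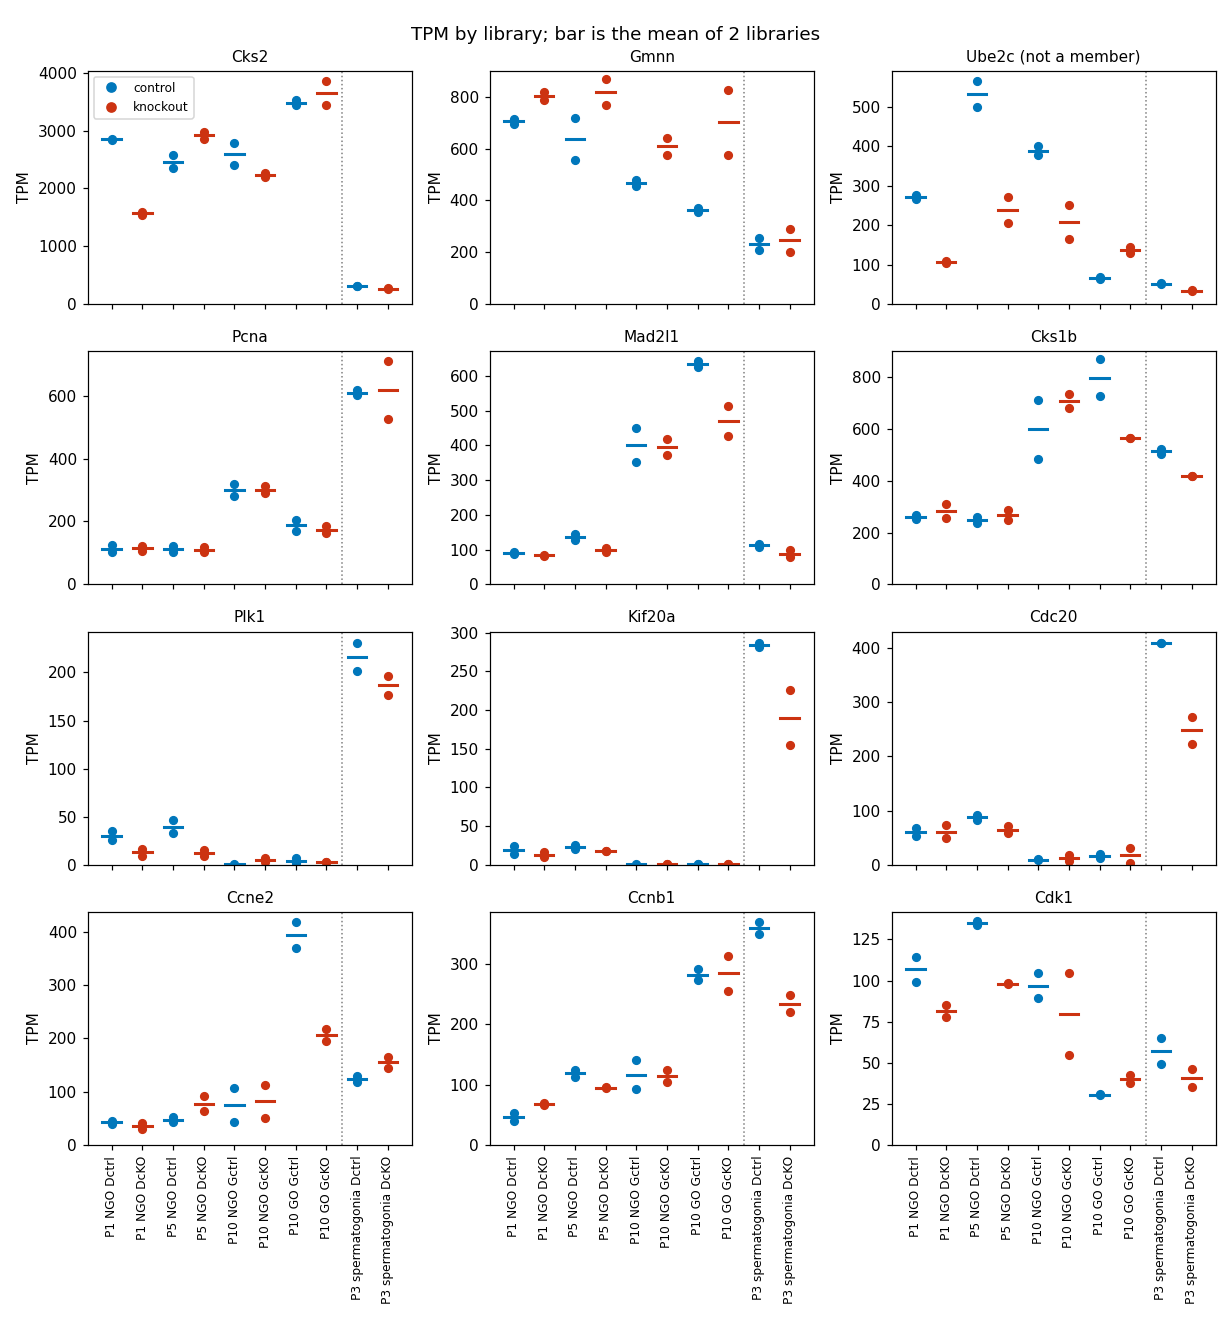
TPM of 11 members and of Ube2c, which is no member, in each library (points, blue for control and red for knockout) by group, with a bar at the mean of 2 libraries and a dotted line before the spermatogonia. Cks2 drops from 2861 and 2842 to 1595 and 1545 TPM in P1 knockouts. Gmnn is higher in growing knockouts (825.9 and 576.4 TPM) than in growing controls (356.2 and 368.8 TPM), though not higher than in P1 and P5 knockouts. Ube2c lies lower in the knockouts of all 3 non-growing groups and higher in those of growing oocytes.

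Partner genes of the members, in 3 lists, were examined in the same fits: 39 replication partners, 43 brakes and switches of the cyclin-dependent kinases and 40 spindle partners. The calls of partner genes were not checked under the alternative settings or with a library left out. In P1, P5 and P10 NGO knockouts, where 0.84%, 0.313% and 0.899% of all genes were called lower, 0 replication partners passed the test and 1 spindle partner was called lower each time. That gene was Ube2c, the ubiquitin-conjugating enzyme that works with the anaphase-promoting complex. Ube2c was at 266.2 and 275.8 TPM in P1 controls and 103.3 and 108.2 TPM in knockouts, at 498.3 and 564.0 against 271.2 and 204.1 TPM at P5, and at 377.3 and 399.8 against 250.4 and 163.9 TPM in P10 NGO. In GO it was at 68.5 and 64.5 TPM in controls and at 143.3 and 129.8 TPM in knockouts. The knockout libraries were thus below the controls in each non-growing group and above them in growing oocytes. The log2 fold changes were -1.35 ± 0.21, -1.17 ± 0.21, -0.94 ± 0.21 and 1.03 ± 0.21 (limma adjusted p = 0.00726, 0.0207, 0.0452 and 0.00623), and the difference of GO minus NGO was 1.96 ± 0.30 (adjusted p = 0.00243).

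Of the brakes and switches, 42 of 43 were tested in oocytes and 0 were called in P1 and P5 knockouts. In P10 NGO knockouts 2 were called higher, Cdk6 and Cdkn2a, where 1.02% of all genes were. Cdk6, a kinase partner of the D-type cyclins, was at 0.0371 and 0.0204 TPM in controls and 4.002 and 3.32 TPM in knockouts (log2 fold change 2.18, limma adjusted p = 0.0306). Cdkn2a, which among its products encodes an inhibitor of such kinases, was listed at 0 in both controls and at 9.86 and 1.69 TPM in knockouts (limma adjusted p = 0.0324). In GO knockouts 2 were called higher, Cdkn1a and Cdc23. Cdkn1a, the inhibitor p21, was at 0.185 and 0.302 TPM in controls and 16.4 and 5.73 TPM in knockouts (3.12 ± 0.61, adjusted p = 0.00462). Cdc23, a subunit of the anaphase-promoting complex, had a log2 fold change of 2.08 (adjusted p = 0.00869).

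In GO knockouts, 1 replication partner was called higher and 2 lower, and of the spindle partners 4 were called higher and 4 lower, where 9.12% of all genes were called higher and 4.69% lower. Lig1, the ligase that joins lagging strand fragments, was at 6.63 and 9.19 TPM in controls and at 32.6 and 20.8 TPM in knockouts (log2 fold change 1.62, limma adjusted p = 0.00241). Rpa3, of the single-strand binding complex, was at 528.6 and 658.6 TPM and then at 240.9 and 254.4 TPM (-1.25, adjusted p = 0.00257), and Orc4, of the origin recognition complex, had -1.13 (adjusted p = 0.0184). Besides Ube2c, the leading spindle partners were Sgo2a, the protector of centromeric cohesion (-3.08, adjusted p = 0.0145), Melk (-1.35, 0.0185) and the chromokinesin Kif22 (1.76, 0.0239). In spermatogonia 0 genes of the 3 lists were called, with medians of -0.22, -0.03 and -0.28.

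Genes of the same lists also changed between control groups. From P1 to P5, where 2.72% of all genes were called higher and 1.98% lower, 4 spindle partners rose and 0 fell, 1 replication partner rose and 2 fell, and 1 brake or switch rose and 1 fell. Pttg1, which encodes securin, rose from 203.9 and 217.1 to 731.3 and 878.8 TPM (log2 fold change 1.93, limma adjusted p = 3.11e-05), and the kinetochore gene Spc24, Tacc3 and Ube2c were the others. Among replication partners Gins4, of the GINS complex, rose (1.20), and Rfc4, of the clamp loader (-0.54), and Orc4 (-1.16) fell. Cdkn1b, the inhibitor p27, rose from 4.11 and 3.14 to 17.2 and 20.9 TPM (2.12, adjusted p = 0.0056), and Ccnb3, a cyclin of meiotic cells, fell from 9.90 and 14.9 to 0.145 and 0.923 TPM (-3.15, adjusted p = 0.0107).

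From P5 to P10 NGO, where 5.54% of all genes were called higher and 17.1% lower and the median of all genes was -0.47, 3 of 39 replication partners rose and 15 fell. Of the brakes and switches 4 rose and 10 fell, and of the spindle partners 3 rose and 9 fell. Fewer genes reached 1 TPM in the P10 libraries (10940 and 10213) than in those of P5 (15453 and 14305), and the part of this in the falls was not tested. Fen1, the flap endonuclease, went from 4.06 and 4.35 TPM to values listed at 0 in both libraries, and Tk1, thymidine kinase, from 18.8 and 18.2 to 0.0249 and 0.055 TPM (-4.23, limma adjusted p = 0.00162). Chaf1a, of the histone chaperone CAF-1 (-2.35), and Lig1 (-1.52) fell as well. Cdkn2a went from 283.6 and 199.7 TPM at P5 to values listed at 0 in both P10 libraries (adjusted p = 2.33e-06), as did E2f2 from 2.11 and 3.25 TPM, and Cdkn2d and Ccno fell by 3.21 and 2.44 on the log2 scale. Spc25, of the NDC80 complex, rose from 236.3 and 231.7 to 810.5 and 965.3 TPM (1.91, adjusted p = 1.12e-05), whereas Nek2 (-3.54), Kif2c (-3.49) and Kif22 (-3.30) fell.

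In GO against NGO controls, where 11.0% of all genes were called higher and 13.2% lower, 5 replication partners rose and 10 fell, 5 brakes and switches rose and 9 fell, and 7 spindle partners rose and 8 fell. Pttg1 rose from 604.0 and 655.5 TPM in NGO to 3996 and 3616 TPM in GO (2.59, limma adjusted p = 6.2e-07). Aspm, a spindle pole protein, rose from 10.7 and 11.7 to 376.0 and 384.9 TPM (4.97, adjusted p = 9.5e-06), and Nek2 rose by 3.56 on the log2 scale. Ube2c fell from 377.3 and 399.8 to 68.5 and 64.5 TPM (-2.53, adjusted p = 5.98e-06). The clamp loader gene Rfc4 fell from 626.5 and 720.8 to 159.2 and 144.5 TPM (-2.14, adjusted p = 7.9e-07), with Lig1 (-2.61) and Rfc1 (-1.40), while Orc4 rose from 94.4 and 95.1 to 242.7 and 299.5 TPM. Of the brakes and switches, Cdkn1a (-3.36), Cdc23 (-2.39) and Cdkn1c (-2.10) fell and Ccnb3 rose (2.71).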

How the data were processed

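RNA-seq values of 20 libraries, deposited by the authors as TPM, came in separate tables for oocytes (16 libraries) and spermatogonia (4). The submitters' processing notes name Trimmomatic 0.39, STAR 2.5.4b, SAMtools 1.9, featureCounts 2.0.1 and the build GRCm38. The annotation, gene lengths, strand setting and TPM step are not given in the sources used here. Libraries came from a low-input kit with paired reads, per the labels' protocols.

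Depth was estimated by finding the scale, with GENCODE M21 union exon lengths, at which low values become whole reads. Of the values below 20 reads, 98.66% to 99.2% then fell within 0.05 of an integer. These reads served only to describe depth.

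The analysis used log2(TPM + 1), a scale that understates changes of low genes, and limma 3.58.1 under R 4.3.3 (moderated tests with a mean-variance trend, two-sided). P-values were adjusted by Benjamini-Hochberg over all genes tested, with calls at 0.05. A gene entered when 2 or more libraries had 1 TPM or more, which left 20470 in oocytes (1 fit, 8 residual degrees of freedom) and 18671 in spermatogonia (2 residual degrees of freedom). Alternatives were a pseudocount of 0.1, a filter at TPM 5 or none, quantile normalisation, scaling to a common median, the replicate number as a block, a fit of the compared groups alone, and leaving out each library. The code was tested on simulated data. The members, lists and tests were chosen with earlier results of these data known.

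Named genes are every member past the threshold, up to 4 members with the smallest p where none passed, the 3 highest and the lowest member of each role by mean oocyte TPM, and up to 4 genes of each partner list with the smallest p where any passed. Others (Cks1b at P1, Cks2 at P5 and between P5 and P10, Cdt1, Gmnn outside GO, the genes named for their levels in spermatogonia, Pcna in knockout spermatogonia, Dppa3) were chosen after their values were seen. Python 3.11.15 with pandas 2.3.3, numpy 2.4.6 and, for plots, matplotlib 3.10.9 did the rest.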

Additional observations from a re-analysis of the deposited data

Results flagged for a closer look

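For 3 genes the knockout effect differed between groups of oocytes by a test of the difference itself. Cks2 differed between the ages, its effect at P5 exceeding that at P1 by 1.11 on the log2 scale (limma adjusted p = 0.00515, lower in both P1 knockout libraries and higher in both P5 knockout libraries than in either control). Top2a and Cenpe differed between P10 growing and non-growing oocytes, by -1.59 (adjusted p = 0.0425) and -1.13 (adjusted p = 0.0492). In both genes the 2 knockout libraries of each class lay on 1 side of the controls, above in non-growing and below in growing oocytes. The Cks2 difference had an adjusted p of 0.00201 to 0.0252 over its alternatives, that of Top2a 0.0199 to 0.211 and that of Cenpe 0.0187 to 0.185. With the replicate number as a block, Top2a (adjusted p = 0.0596) and Cenpe (0.0663) did not pass, nor did they in a limma fit of the P10 groups alone (0.211 and 0.185).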

How the results depend on the processing

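Of the 35 calls named for single members, 10 kept their side of the threshold under every alternative run and 0 changed direction. The count of members called stayed at 1 for P1 knockouts and for the difference P5 minus P1 under every alternative run. It was 0 for spermatogonia throughout, which shows no stability, since a fit of 4 libraries passes few genes. Elsewhere it moved as follows, and the cause was not tested. For P5 knockouts (0), 1 was called without a filter. For P10 NGO knockouts (0), it was 1 with a pseudocount of 0.1, a filter at TPM 5 or quantile normalisation, and 0 to 4 with 1 library left out. For GO knockouts (1), it was 2 with a pseudocount of 0.1, a filter at TPM 5 or the compared groups alone, 5 with quantile normalisation, 3 with median scaling, and 1 to 2 with 1 library left out. For P5 against P1 (4), it was 9 with the compared groups alone and 0 to 2 with 1 library left out. For P10 against P5 (15), it was 7 without a filter, 9 with the compared groups alone and 5 to 11 with 1 library left out. For GO against NGO (11), it was 7 with the compared groups alone and 8 to 11 with 1 library left out. For the difference GO minus NGO (2), it was 1 with a pseudocount of 0.1, 0 with the compared groups alone and 0 to 3 with 1 library left out. With the replicate number as a block that difference had 0 members called. Over all genes, libraries with the same number did not deviate together (correlations from -0.049 to 0.045). A correlation over all genes cannot show whether a part of the genes shared a batch. For the other comparisons, the block moved no count of members by over 1.5 times. The low depth of some members (3 to 23 reads for Plk1 and Kif20a in P10 NGO controls) limits their fold changes, and 2 libraries a group limit all tests.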
